A study of Mus musculus with 30 samples.

Results

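The comparison described here is that of C2C12 myotubes kept for 4 days without serum and with 500 nM added leucine (LEU) vs. myotubes kept in 2% horse serum (2% HS). It was taken from the sample labels and holds 12 of the 30 libraries of the study, 6 in LEU and 6 in 2% HS, and it is reported across the 15907 of 55487 annotated genes that had enough counts to be tested. C2C12 is a mouse myoblast line that fuses into multinucleated myotubes when serum is lowered. All cells were wild type, were differentiated for 4 days in low glucose DMEM with 2% horse serum, and were collected on day 8 after 4 further days of treatment. In 2% HS the medium kept its horse serum. In LEU the serum was removed and leucine was added at 500 nM, and in serum deprivation (SD) the serum was removed with nothing added. LEU and 2% HS therefore differ in both serum and added leucine, and SD, with 6 libraries, is the group that carries the first change alone. The free amino acids of the medium itself were present in all groups. The study's other groups received 100 nM metformin without serum, alone or with leucine. They enter here only in the gene filter, the scaling factors and the estimate of the spread between libraries. The labels do not say whether the 6 libraries of a group came from separate cultures, so p-values measure the spread between these libraries, which may be technical.

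Serum supplies growth factors, hormones, lipids, retinoids, iron carriers and protein-bound nutrients, and its removal starves myotubes of trophic signals while glucose and free amino acids stay in the medium. Leucine is a branched-chain amino acid that enters cells through the Slc7a5 and Slc3a2 exchanger, is sensed by Sestrins, and activates mTORC1, the kinase complex that drives protein synthesis. Myotubes have left the cell cycle, but cultures of this line keep mononucleated cells, some of which still divide.

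Each library held between 12784960 and 19604103 counts in genes, and the ranges of LEU (14091627 to 17514000) and 2% HS overlapped. Levels are given as counts per 1000000 counts (CPM) scaled by edgeR's TMM factors, and where a gene is described by 3 values they are the lowest, the median and the highest of 6 libraries. Myotube markers were abundant in both groups, with a summed level of 8 markers (Myh1, Myh3, Myh8, Ckm, Acta1, Tnnt3, Mylpf and Myog) of 10530 to 11320 CPM in 2% HS and 10590 to 11020 CPM in LEU. The 5 markers of undifferentiated myoblasts summed to 1174 to 1257 CPM in 2% HS and to 907 to 959 CPM in LEU. In bulk RNA, fewer cells of a type and less RNA per cell cannot be told apart. Markers of endothelial cells and macrophages were scarce: 4 of 5 endothelial markers (Pecam1, Cdh5, Kdr and Tek) and 4 of 5 macrophage markers (Ptprc, Adgre1, Csf1r and Lyz2) stayed under 1 CPM in all 12 libraries. LEU libraries held more residual ribosomal RNA, at 0.507% to 1.06% of counts against 0.217% to 0.702% in 2% HS, and more counts on the mitochondrial chromosome, at 3.41% to 3.83% against 2.48% to 3.08%. In SD these shares were 0.209% to 0.890% and 2.74% to 3.37%, so the mitochondrial share in LEU lay above that in SD as well.

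Of the 15907 genes, 4723 (29.7%) differed in LEU vs. 2% HS at an adjusted p under 0.05 by edgeR's quasi-likelihood test, 2288 (14.4%) upregulated and 2435 (15.3%) downregulated. For 2965 genes (18.6%) the 6 LEU libraries did not overlap the 6 libraries in 2% HS. Most changes were small, the median size of a called log2 fold change being 0.31, and 373 genes reached a log2 fold change of 1 or more in size, 176 upward and 197 downward. The median log2 fold change over all genes was -0.0043. SD vs. 2% HS uses the same 2% HS libraries, so its values are set beside those of LEU below without a test of their likeness. The direct test of LEU vs. SD, which asks of each gene whether its change against 2% HS differed with leucine, gave 88 genes (0.553%), 37 higher (0.233%) and 51 lower (0.321%). Without MET+LEU replicate 6, a library that stood apart and belongs to neither group compared, that number was 263.

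The 12 largest increases included those of Ly6d, Akr1c14 and Slc6a2. Ly6d (ENSMUSG00000034634, chr15:74762056-74763620 in GRCm38, protein coding), which encodes a lipid-anchored surface protein, lay at 0.387, 0.815 and 1.14 CPM in 2% HS and 7.38, 9.19 and 11.2 CPM in LEU (log2 change 3.54, standard error or SE 0.17, adjusted p = 8.90e-22). Akr1c14 on chromosome 13, a hydroxysteroid dehydrogenase of a family of similar genes, lay at 2.63, 3.10 and 3.33 CPM in 2% HS and 25.2, 28.9 and 33.1 CPM in LEU (log2 change 3.25, SE 0.087, adjusted p = 3.32e-32). Slc6a2, the noradrenaline transporter, lay at 0.823, 1.68 and 2.13 CPM in 2% HS and 13.02, 14.5 and 17.4 CPM in LEU (log2 change 3.21, SE 0.14, adjusted p = 6.50e-24). All 6 LEU libraries were above all 6 libraries in 2% HS for these genes, and the same held for the other 9 of the 12 largest increases, which the rule for named genes required. Dpt (ENSMUSG00000026574, chr1:164796644-164824266), which encodes the matrix protein dermatopontin, rose from 5.73 ± 0.654 to 47.1 ± 1.99 CPM (mean ± SD, n = 6 each; log2 change 3.03, SE 0.065, adjusted p = 3.88e-36), with no overlap between the groups. The receptors for apelin (Aplnr), oxytocin (Oxtr) and progesterone (Pgr) rose by 2.97, 2.76 and 2.23 on the log2 scale. Sfrp2, a secreted modulator of Wnt signalling, rose from 13.2 ± 1.46 to 70.1 ± 5.05 CPM, and Enpp2, which makes lysophosphatidic acid, rose from 0.874 ± 0.316 to 4.78 ± 0.912 CPM. The remaining large increases were those of Fam198a (log2 fold change 2.50), of Aff3 (2.33), a nuclear protein of the AFF family, and of Slc1a3 (2.25), a glutamate transporter.

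The largest decreases included those of Car12, Ero1l and Ndrg1. Car12 (ENSMUSG00000032373, chr9:66713686-66766845), a carbonic anhydrase of the cell surface, lay at 11.5, 13.2 and 15.98 CPM in 2% HS and 1.20, 2.80 and 4.09 CPM in LEU (log2 change -2.39, SE 0.16, adjusted p = 9.35e-16). Ero1l, the endoplasmic reticulum oxidase that helps to form disulfide bonds, lay at 119, 139 and 176 CPM in 2% HS and 24.9, 34.5 and 51.6 CPM in LEU (log2 change -1.97, SE 0.18, adjusted p = 2.09e-09). Ndrg1 (ENSMUSG00000005125, chr15:66929318-66969640), a gene induced by hypoxia and differentiation, fell from 386 ± 54.2 to 111 ± 36.2 CPM (log2 change -1.79, SE 0.19, adjusted p = 3.16e-08). Every LEU library was below every 2% HS library for these genes. Slc2a4, the insulin-responsive glucose transporter of muscle, fell from 9.39 ± 0.882 to 2.76 ± 0.752 CPM (log2 change -1.76, SE 0.15, adjusted p = 2.20e-13). Trib3, a pseudokinase gene switched on by the factor ATF4, and Cth, the cystathionine gamma-lyase that makes cysteine, fell, with log2 fold changes of -1.75 and -1.58. Others were Fam107a (log2 fold change -1.90), Edn1 (-1.90), the vasoconstrictor endothelin-1, Nmrk2 (-1.73), a muscle kinase of the NAD pathway, Slc5a5 (-1.64), the sodium-iodide symporter, and Vmn1r43 (-1.77), annotated as a vomeronasal receptor of a large family. In SD vs. 2% HS the log2 fold changes were 3.06 for Ly6d, 3.05 for Dpt, -2.02 for Car12, -1.55 for Ndrg1 and -1.01 for Cth. None of these 23 genes passed the threshold in LEU vs. SD, where Ly6d came closest (0.48 on the log2 scale, adjusted p = 0.0521).

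**Figure D1:**
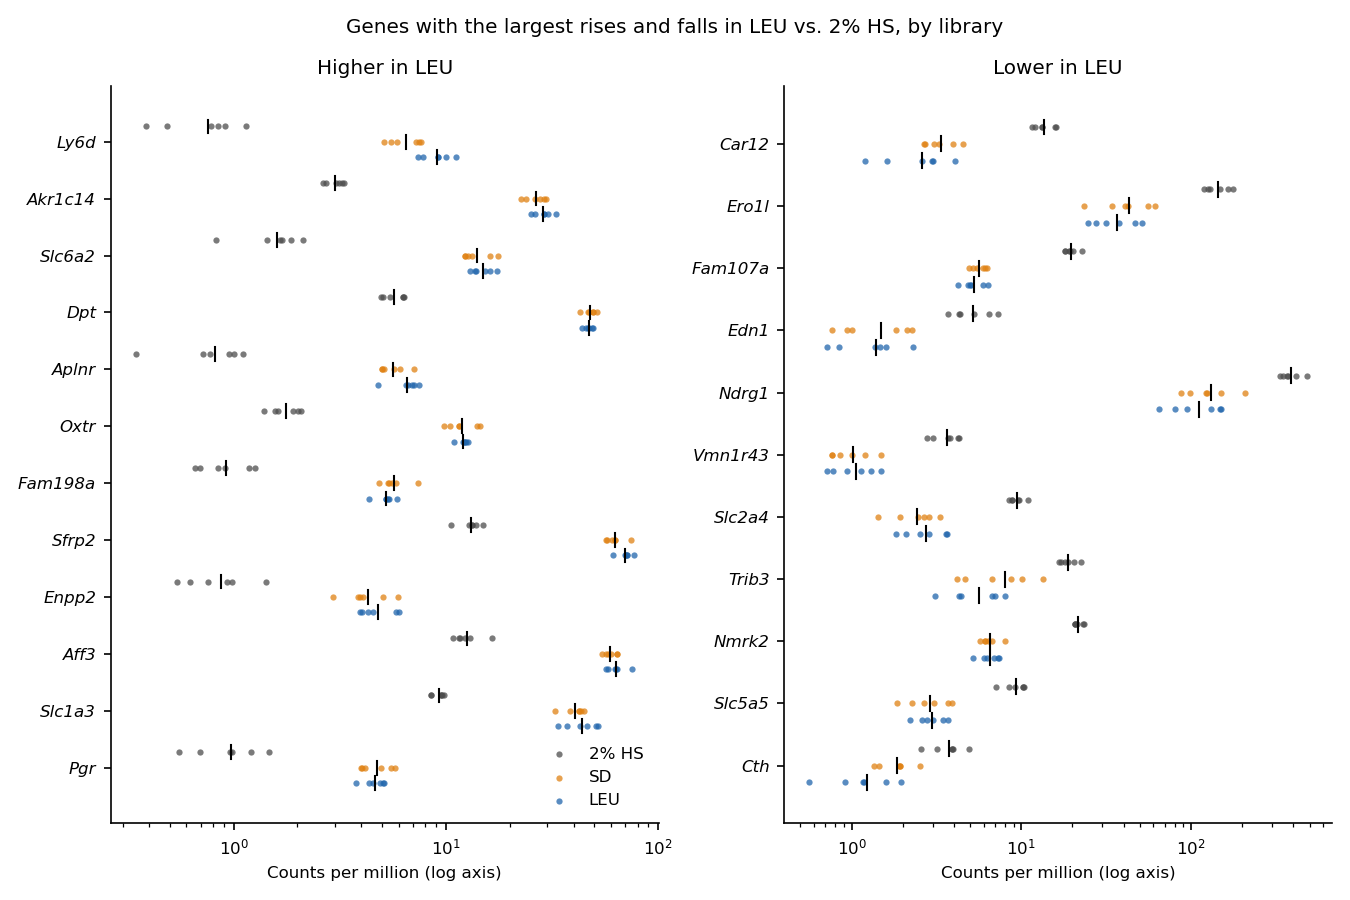
CPM (log axis) of the 12 genes with the largest rise and 11 of the 12 with the largest fall in LEU vs. 2% HS, for each library of 2% HS, SD and LEU. Points are libraries and vertical ticks are group means (n = 6). The LEU and 2% HS points do not overlap for any of the 23 genes, which was a condition for showing them, and none of them differed between LEU and SD at the threshold.

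Gene lists for pathways of muscle, growth and stress were described by how many tested members passed the threshold in each direction, to be read against 14.4% higher and 15.3% lower over all genes.

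**Figure D2:**
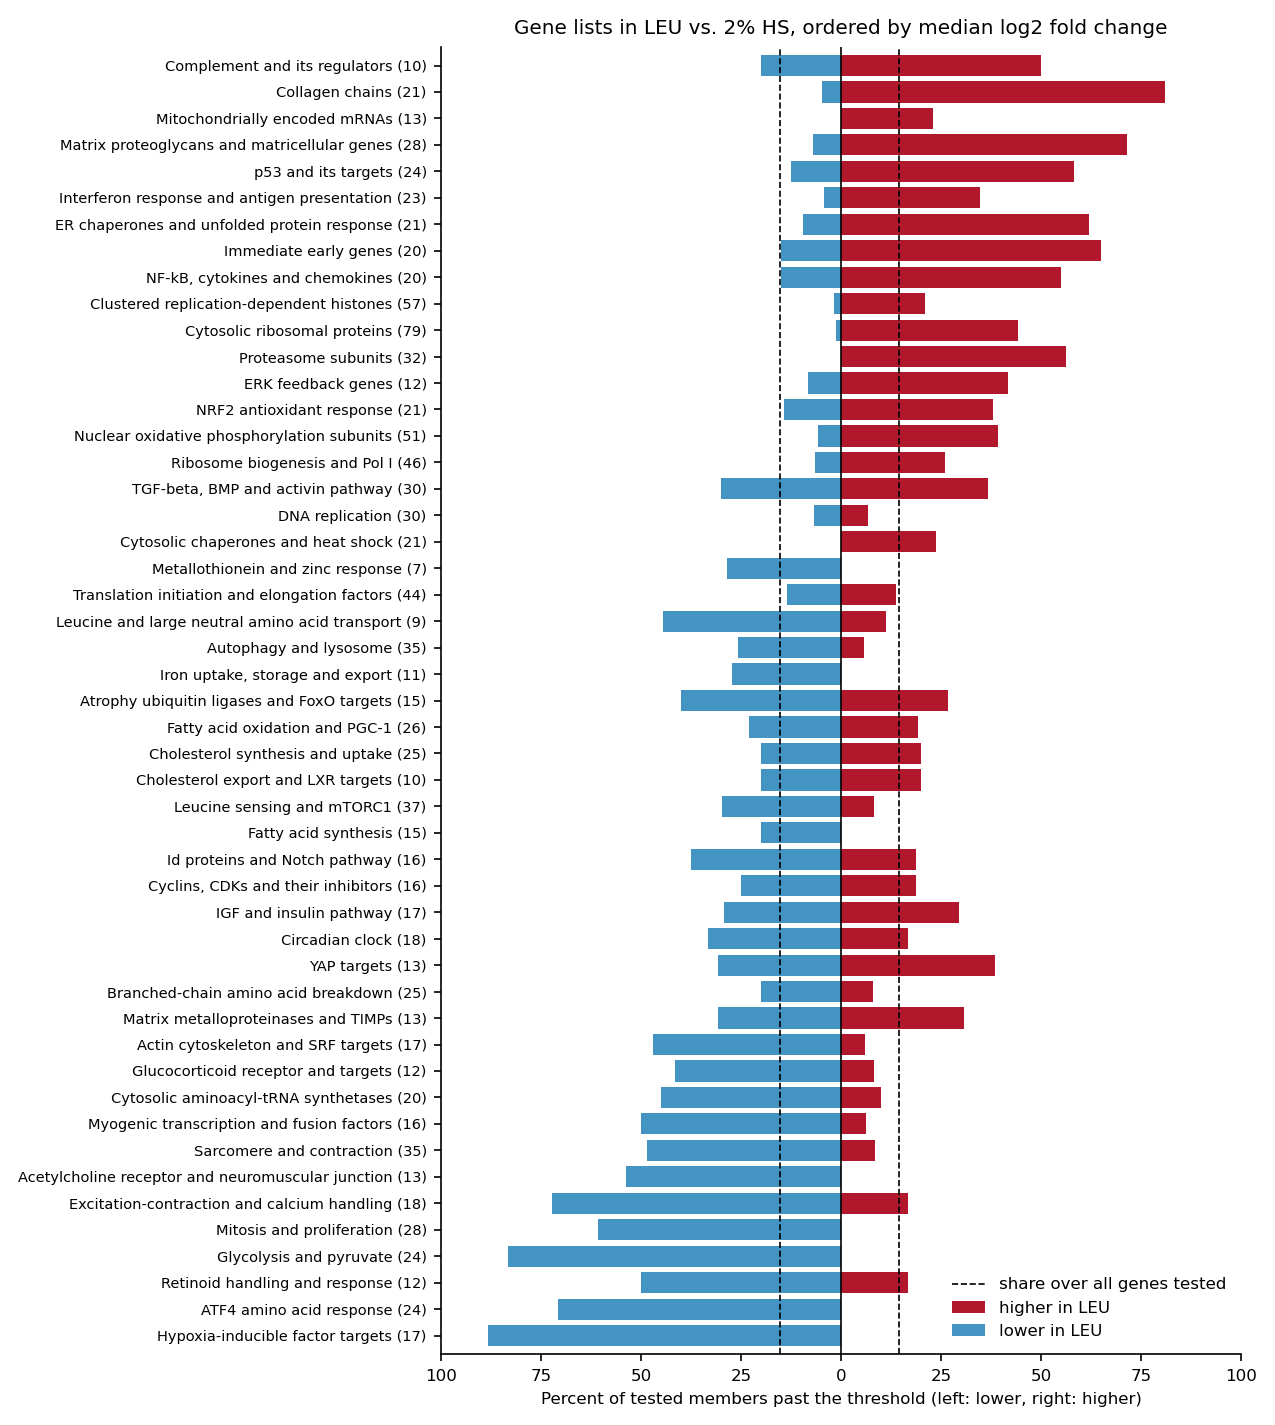
Percent of the tested members of each gene list (number of members in parentheses) that were higher (red, to the right) or lower (blue, to the left) in LEU vs. 2% HS, with lists ordered by their median log2 fold change. Dashed lines give the share over all genes tested, 14.4% higher and 15.3% lower. Hypoxia-inducible factor targets, ATF4 targets and glycolysis hold mostly lower members, and collagens and matrix proteoglycans mostly higher ones.

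Hypoxia-inducible factor (HIF) binds the core letters ACGTG in the control regions of genes for oxygen supply and glucose use. Of 17 HIF genes tested, Hif1a among them, 15 were downregulated, 0 were upregulated and the median log2 fold change was -0.50. In the 250 bases before the RefSeq start sites (GRCm38.p6), ACGTG on either strand stood in 11 of the 15 list members with a sequence (73.3%) and in 24.9% of the tested genes with a sequence. A match describes the letters only and says nothing of binding in these cells, here and for the elements below. The lists were chosen for these pathways, so such shares describe the lists and are not a result of this comparison. The stretches of 3 downregulated members are shown because they hold these letters (in capitals) outside any annotated exon. Bnip3 holds them on both strands, in the overlapping letters CACGTG, and the stretch of P4ha2 lies within an annotated intron of that gene.
Ddit4 (chr10:59951903-59952007, minus strand): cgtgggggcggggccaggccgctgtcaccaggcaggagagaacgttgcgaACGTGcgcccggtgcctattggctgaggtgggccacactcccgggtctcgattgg
Bnip3 (chr7:138909560-138909664, minus strand): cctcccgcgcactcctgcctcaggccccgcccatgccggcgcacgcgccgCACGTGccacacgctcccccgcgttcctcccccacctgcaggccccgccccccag
P4ha2 (chr11:54100796-54100900, plus strand): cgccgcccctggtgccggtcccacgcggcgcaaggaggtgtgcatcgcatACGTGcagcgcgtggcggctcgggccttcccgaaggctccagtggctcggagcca

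Ddit4, which encodes an inhibitor of mTORC1 and is also an ATF4 target, lay at 39.1, 44.2 and 48.5 CPM in 2% HS and 17.4, 21.1 and 23.9 CPM in LEU (log2 change -1.09, SE 0.10, adjusted p = 7.11e-11). Bnip3, a mitophagy receptor, lay at 123, 136 and 167 CPM in 2% HS and 67.3, 86.7 and 106 CPM in LEU (log2 change -0.71, SE 0.11, adjusted p = 1.56e-05). P4ha2, a prolyl hydroxylase that modifies collagen, lay at 68.3, 70.7 and 83.7 CPM in 2% HS and 40.3, 50.5 and 54.5 CPM in LEU (log2 change -0.56, SE 0.057, adjusted p = 4.49e-11). None of these 3 genes had overlapping groups. Car9, a carbonic anhydrase widely used as a marker of hypoxia, fell from 41.5 ± 6.38 to 14.7 ± 5.46 CPM (log2 change -1.49, SE 0.20, adjusted p = 1.89e-06), and Adm, which encodes the peptide adrenomedullin, fell from 23.3 ± 2.88 to 7.88 ± 2.02 CPM (log2 change -1.55, SE 0.12, adjusted p = 3.38e-13). Vegfa, the vascular growth factor, fell from 372 ± 13.7 to 222 ± 22.1 CPM (log2 change -0.75, SE 0.055, adjusted p = 5.09e-13). Hif1a, the regulated subunit of the factor and also a member of the list, was lower by a smaller margin (log2 change -0.25, SE 0.046, adjusted p = 2.87e-05). The list's median in SD vs. 2% HS was -0.41, and no member differed in LEU vs. SD.

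Glycolysis splits glucose into pyruvate, and 20 of the 24 genes tested for it were downregulated with 0 upregulated (median -0.32). Beside Slc2a4, the members with the largest decreases were Pfkfb3, which makes the activator of phosphofructokinase, Hk2, a hexokinase, Slc2a1, the basal glucose transporter, and Slc16a3, which exports lactate. Pfkfb3 lay at 47.6, 53.2 and 60.9 CPM in 2% HS and 20.9, 25.1 and 33.0 CPM in LEU (log2 change -1.04, SE 0.10, adjusted p = 3.79e-09). Hk2 lay at 154, 162 and 178 CPM in 2% HS and 70.7, 91.4 and 103 CPM in LEU (log2 change -0.88, SE 0.074, adjusted p = 7.89e-11). For both, the LEU libraries were all below those in 2% HS. Slc2a1 and Slc16a3 fell, with log2 fold changes of -0.77 and -0.71 (adjusted p = 3.65e-07 and 2.04e-06), with no overlap between groups. Across the 12 libraries, the median deviation of the list from the 2% HS mean lay between -0.41 and -0.22 in LEU and between -0.079 and 0.084 in 2% HS. In SD the median log2 fold change was -0.29, and no member differed between LEU and SD.

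ATF4 is the factor through which cells answer a lack of amino acids and stress of the endoplasmic reticulum, and it binds elements of the form TGATGNAA. Of 24 genes of the ATF4 response tested, Atf4 among them, 17 were downregulated and 0 upregulated (median -0.49). TGATGNAA on either strand stood within 250 bases before the start in 8 of the 22 members with a sequence (36.4%) and in 2.32% of tested genes. The 3 stretches below belong to downregulated members, with the element in capitals. It is on the opposite strand in Fgf21 and Chac1, and Slc7a11 holds 1 copy on each strand.
Fgf21 (chr7:45615572-45615679, minus strand): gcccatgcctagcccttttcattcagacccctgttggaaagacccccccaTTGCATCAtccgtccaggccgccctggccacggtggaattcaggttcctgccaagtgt
Chac1 (chr2:119350999-119351106, plus strand): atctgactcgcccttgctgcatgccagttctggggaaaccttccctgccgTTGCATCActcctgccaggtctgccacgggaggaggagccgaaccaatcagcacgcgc
Slc7a11 (chr3:50443622-50443729, minus strand): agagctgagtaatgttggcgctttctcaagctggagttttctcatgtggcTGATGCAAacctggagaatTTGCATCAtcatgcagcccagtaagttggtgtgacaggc

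Fgf21, a hormone that stressed muscle secretes, lay at 33.2, 40.5 and 43.6 CPM in 2% HS and 15.2, 19.1 and 20.2 CPM in LEU (log2 change -1.09, SE 0.10, adjusted p = 6.62e-10). Chac1, which degrades glutathione, lay at 28.7, 33.9 and 34.8 CPM in 2% HS and 14.4, 18.1 and 21.3 CPM in LEU (log2 change -0.89, SE 0.088, adjusted p = 7.28e-11). Slc7a11, the cystine importer, lay at 3.54, 4.17 and 5.26 CPM in 2% HS and 2.05, 2.60 and 3.25 CPM in LEU (log2 change -0.76, SE 0.16, adjusted p = 0.000164). The LEU libraries lay below all those in 2% HS in each case. Gdf15, another secreted stress signal, fell from 5.51 ± 1.29 to 2.04 ± 0.616 CPM (log2 change -1.43, SE 0.21, adjusted p = 8.41e-07), and Vldlr, a lipoprotein receptor, fell from 136 ± 12.9 to 57.8 ± 10.0 CPM (log2 change -1.23, SE 0.11, adjusted p = 1.95e-09). Atf4 mRNA was not among the changed genes, at 268 ± 8.86 CPM in 2% HS and 272 ± 7.71 CPM in LEU (log2 fold change 0.022, adjusted p = 0.679). In SD vs. 2% HS the list had a median of -0.43. Trib3 and Cth were at -1.25 and -1.01 there, and their differences in LEU vs. SD, -0.50 and -0.58 on the log2 scale, did not pass the threshold (adjusted p = 0.526 and 0.29).

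**Figure D3:**
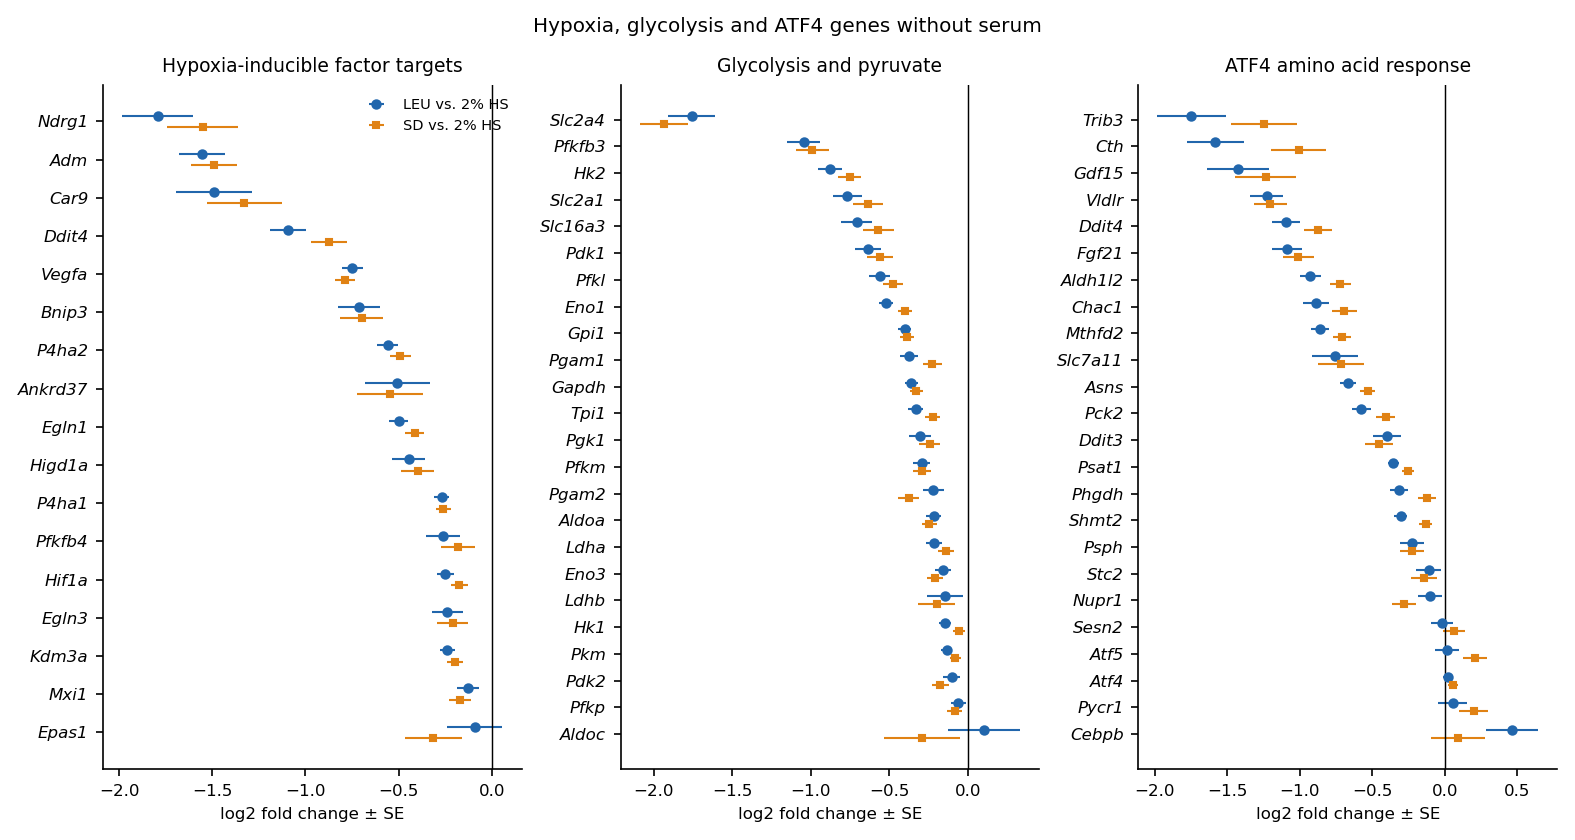
Log2 fold change with its standard error for every tested member of the hypoxia-inducible factor, glycolysis and ATF4 lists, in LEU vs. 2% HS (blue circles) and SD vs. 2% HS (orange squares), which share the 2% HS libraries. In LEU, 15 of 17, 20 of 24 and 17 of 24 members passed the threshold, all of them left of 0.

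Aminoacyl-tRNA synthetases, several of which ATF4 also controls, were lower in 9 of 20 members and higher in 2 (median -0.086). Vars, the valine enzyme, and Aars, the alanine enzyme, fell, with log2 fold changes of -0.30 and -0.21, while Hars, the histidine enzyme, rose by 0.30 on the log2 scale.

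The transporters that carry leucine are the first genes of interest in a leucine treatment. Of 9 genes tested for the transport of leucine and other neutral amino acids, 4 were downregulated and 1 upregulated. Slc7a5 (ENSMUSG00000040010, chr8:121881150-121907694), the exchange subunit for leucine, lay at 186, 195 and 203 CPM in 2% HS and 114, 124 and 128 CPM in LEU (log2 change -0.66, SE 0.04, adjusted p = 1.49e-18). Its level in SD lay between them, at 130.0, 136 and 153 CPM, and it was lower in LEU than in SD as well (-0.16 on the log2 scale, adjusted p = 0.0441), a call that was lost in 12 of 23 alternative fits. Slc3a2, the heavy chain that partners Slc7a5, fell from 118 ± 4.88 to 98.5 ± 2.80 CPM (log2 change -0.27, SE 0.038, adjusted p = 2.11e-07). Slc38a2, which brings in glutamine, and Slc43a2, a uniporter of branched-chain amino acids, fell, with log2 fold changes of -0.19 and -0.16. Slc25a44, the mitochondrial importer of branched-chain amino acids, was higher by 0.14 on the log2 scale (adjusted p = 0.0184), a call lost without 2% HS replicate 1 or LEU replicate 4.

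Genes that sense leucine and control mTORC1 changed little in size. Of 37 tested, 11 were downregulated and 3 upregulated, with a median of -0.033. Sesn3, a Sestrin, rose from 96.6 ± 4.30 to 123 ± 3.68 CPM (log2 change 0.35, SE 0.038, adjusted p = 1.71e-10). Sesn2, the Sestrin best known to bind leucine, did not pass, at 23.6 ± 1.98 CPM in 2% HS and 23.2 ± 1.74 CPM in LEU (log2 fold change -0.021, adjusted p = 0.868). Flcn and Fnip1, the partners that act on the Rag GTPases, fell, with log2 fold changes of -0.43 and -0.27, and Flcn lay at 58.4, 65.7 and 75.7 CPM in 2% HS and 45.0, 50.4 and 51.8 CPM in LEU with no overlap. Other decreases were those of Nprl3 (log2 fold change -0.22), Seh1l (-0.17) and Wdr59 (-0.14) of the GATOR complexes, Slc38a9 (-0.20), the lysosomal arginine sensor, Lamtor1 (-0.18), Lars (-0.18), the leucine tRNA synthetase, Deptor (-0.13) and Mtor (-0.13), the kinase itself. Lamtor2 and Castor2 rose by 0.23 and 0.13 on the log2 scale. Wdr59 lost its call in 8 of 23 alternative fits, Lamtor1 without 2% HS replicate 4 or LEU replicate 2, and Lamtor2 with the offset for transcript length. No member of this list differed in LEU vs. SD.

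Branched-chain amino acid breakdown held 5 downregulated and 2 upregulated of 25 members (median -0.06), a share near the background. Bcat1, the cytosolic aminotransferase that starts the pathway, fell from 16.6 ± 1.46 to 12.7 ± 0.886 CPM (log2 change -0.39, SE 0.077, adjusted p = 7.10e-05), and Ivd, which acts on the leucine skeleton, fell from 36.9 ± 2.49 to 29.5 ± 1.36 CPM (log2 change -0.33, SE 0.063, adjusted p = 5.23e-05). Dbt, a subunit of the branched-chain ketoacid dehydrogenase, Echs1 and Aldh6a1 fell, with log2 fold changes of -0.28, -0.19 and -0.16, and the calls of Echs1 and Aldh6a1 were lost in 1 and 4 of 23 alternative fits. Bckdhb, another subunit of that dehydrogenase, was higher by 0.67 on the log2 scale at a level near 1 CPM and Dld by 0.12, and these calls were lost in 11 and 7 of 23 alternative fits. Bcat2, the mitochondrial aminotransferase, stood at 26.1 ± 1.77 CPM in 2% HS and 25.3 ± 0.898 CPM in LEU and did not pass (adjusted p = 0.688).

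In the mitosis genes LEU differed from SD as well as from 2% HS. The products of these genes condense, attach and separate chromosomes, and their RNA marks cells that still divide. Of 28 members, 17 were downregulated and 0 upregulated in LEU vs. 2% HS (median -0.32), whereas the median in SD vs. 2% HS was 0.048. In the direct test of LEU vs. SD, 12 of the 28 members were lower and 0 higher, against 0.321% lower over all genes. The number of lower members lay between 5 and 12 when 1 library was left out, and was 5 to 7 without LEU replicate 2 or 4 or SD replicate 2, 4 or 6. The 5 markers of cycling cells summed to 150 to 183 CPM in 2% HS, 146 to 215 CPM in SD and 120 to 152 CPM in LEU. Of these, Top2a and Ccnb1 were lower in LEU vs. 2% HS past the threshold. Mki67, Cdk1 and Birc5 did not pass (log2 fold changes -0.22, -0.15 and 0.01). The CHR element, TTTGAA, on which cell cycle genes are silenced outside division, stood on either strand within 250 bases before the start in 9 of the 23 members with a sequence (39.1%) and in 12.7% of tested genes. Stretches of 3 downregulated members follow, with TTTGAA or its reverse complement in capitals. Top2a has a further copy closer to its start than the stretch shown.
Top2a (chr11:99024313-99024418, minus strand): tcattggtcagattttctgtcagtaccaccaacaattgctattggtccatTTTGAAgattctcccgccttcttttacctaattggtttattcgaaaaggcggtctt
Ccnb2 (chr9:70421666-70421771, minus strand): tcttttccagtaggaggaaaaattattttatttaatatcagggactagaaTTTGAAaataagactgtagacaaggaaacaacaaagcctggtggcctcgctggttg
Kif11 (chr19:37376313-37376381, plus strand): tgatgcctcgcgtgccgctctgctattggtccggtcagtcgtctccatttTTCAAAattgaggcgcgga

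Ccnb1 (ENSMUSG00000041431, chr13:100778650-100786570), the cyclin that starts mitosis, lay at 8.85, 10.1 and 10.9 CPM in 2% HS and 5.69, 6.11 and 6.71 CPM in LEU (log2 change -0.70, SE 0.10, adjusted p = 4.21e-07). In SD it lay at 8.86, 10.2 and 10.99 CPM, so that the 6 LEU libraries were below all 12 others, and LEU vs. SD gave -0.70 on the log2 scale (adjusted p = 0.000149). Ccna2, the cyclin of S phase and G2, lay at 21.8, 22.9 and 26.1 CPM in 2% HS and 14.2, 17.1 and 19.4 CPM in LEU (log2 change -0.44, SE 0.077, adjusted p = 1.11e-05). In SD Ccna2 lay at 23.2, 24.9 and 28.2 CPM, and LEU vs. SD gave -0.545 on the log2 scale (adjusted p = 7.92e-05). Top2a, the topoisomerase that untangles chromosomes, lay at 49.9, 57.7 and 63.6 CPM in 2% HS and 39.6, 45.4 and 52.4 CPM in LEU (log2 change -0.33, SE 0.075, adjusted p = 0.00102). In SD Top2a lay at 52.2, 62.8 and 74.4 CPM. The LEU and 2% HS libraries of Top2a overlapped, those of Ccna2 did not. Foxm1, the factor that drives late cell cycle genes, fell from 16.7 ± 1.82 to 12.3 ± 1.08 CPM (log2 change -0.44, SE 0.087, adjusted p = 7.69e-05), with 15.8 ± 1.18 CPM in SD. Cenpa, the centromeric histone, and Kif20a, a motor of cell cleavage, fell, with log2 fold changes of -0.52 and -0.44. Ccnb2 and Kif11 were lower, with log2 fold changes of -0.30 and -0.23 (adjusted p = 0.0394 and 0.0388), and their calls were lost in 7 and 9 of 23 alternative fits. Mki67, the usual marker of cycling cells, did not pass (log2 fold change -0.22, adjusted p = 0.136).

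**Figure D4:**
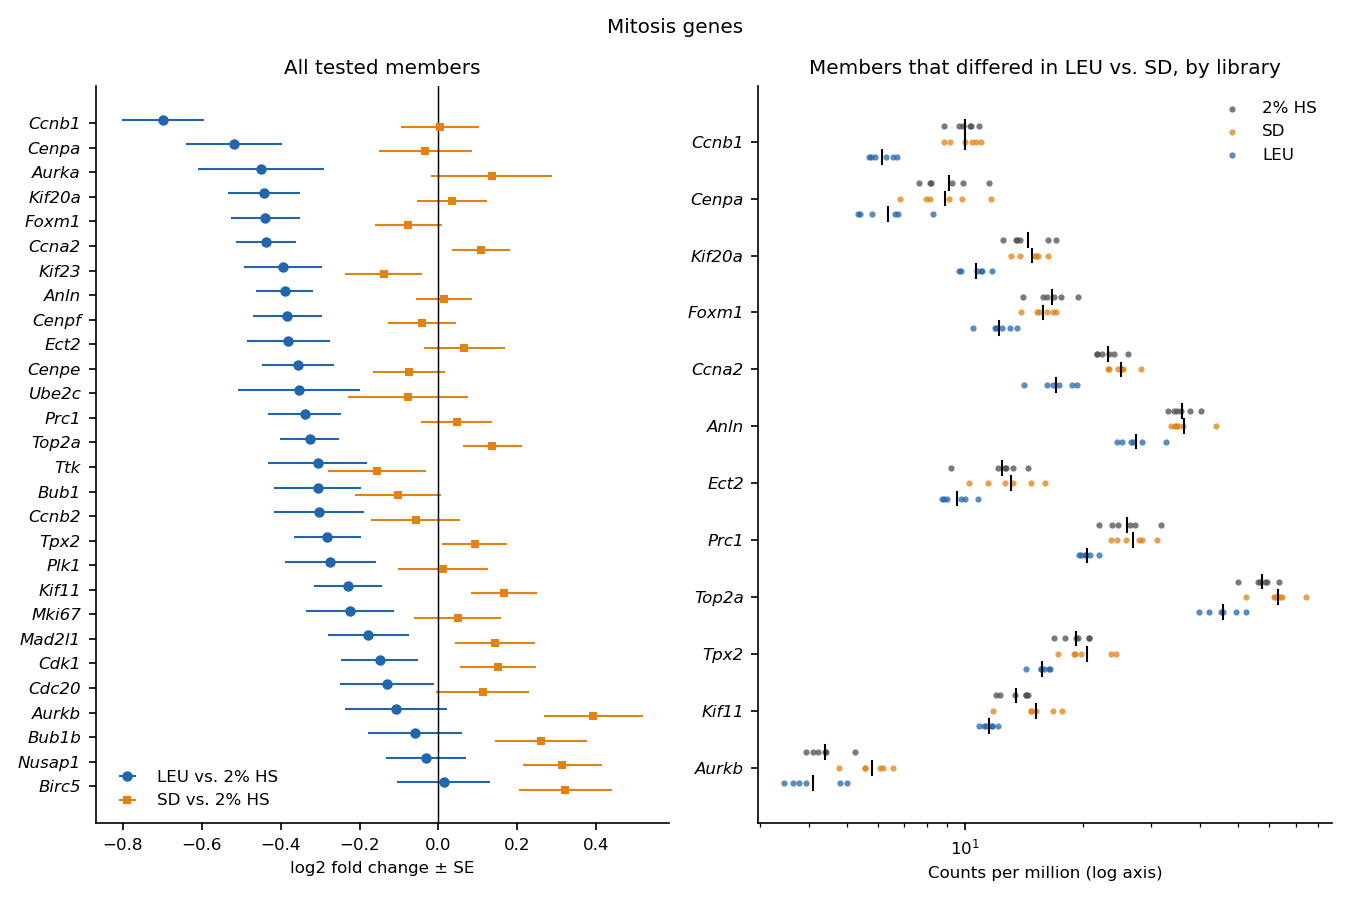
Left, log2 fold change with its standard error of the 28 tested mitosis genes in LEU vs. 2% HS (blue circles) and SD vs. 2% HS (orange squares). Right, CPM (log axis) by library for the 12 members that differed in LEU vs. SD, with ticks at the group means (n = 6). For Ccnb1 all 6 LEU libraries lie at or under 6.71 CPM and all others at or above 8.85 CPM.

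DNA replication genes, which act earlier in the cycle, held 2 upregulated and 2 downregulated of 30, smaller shares than over all genes (median 0.049; 0.23 in SD). In LEU vs. SD, 3 of the 30 were lower, against 0.321% over all genes, with a median of -0.18. Rrm2 and Rrm1, the subunits of ribonucleotide reductase, fell, with log2 fold changes of -0.30 and -0.23 (adjusted p = 1.23e-07 and 9.34e-06), and Gmnn, the inhibitor of origin licensing, rose by 0.62 on the log2 scale. Of 16 cyclins, CDKs and their inhibitors, 3 were higher and 4 lower. Ccnd1, the cyclin of G1, rose from 8.84 ± 0.886 to 19.1 ± 2.15 CPM (log2 change 1.11, SE 0.094, adjusted p = 1.78e-13), Cdkn1a, the p21 inhibitor that holds myotubes out of the cycle, rose from 1766 ± 73.9 to 2269 ± 114 CPM (log2 change 0.36, SE 0.042, adjusted p = 1.12e-09), and Ccnd3, the cyclin of differentiating muscle, fell from 294 ± 11.1 to 211 ± 6.00 CPM (log2 change -0.48, SE 0.065, adjusted p = 8.22e-07). Clustered histone genes, whose RNA is made in S phase and mostly lacks a poly(A) tail, were higher in 12 and lower in 1 of 57 members (median 0.18; 0.33 in SD). In LEU vs. SD, 1 was higher and 4 were lower, against 0.233% higher and 0.321% lower over all genes. Hist1h2bc rose from 36.3 ± 1.89 to 59.4 ± 3.09 CPM (log2 change 0.71, SE 0.085, adjusted p = 8.53e-08) and Hist1h1c rose from 175 ± 7.65 to 224 ± 11.8 CPM (log2 change 0.36, SE 0.07, adjusted p = 0.000203). Histone genes are near copies of each other, and how the authors counted reads shared among copies is not known.

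Of 24 genes of the p53 pathway, which halts the cycle or kills cells after damage, 14 were upregulated and 3 downregulated (median 0.32; 0.34 in SD). Fas, a death receptor, rose from 12.2 ± 1.97 to 19.01 ± 1.69 CPM (log2 change 0.63, SE 0.087, adjusted p = 7.32e-08). Trp53inp1, Eda2r and Aen, all induced by p53, rose by 0.59, 0.52 and 0.50 on the log2 scale with no overlap between groups. Bbc3, which encodes the killer protein PUMA, fell (log2 fold change -0.48, adjusted p = 0.000281).

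Extracellular matrix genes moved mainly upward. Of 21 collagen chains, 17 were upregulated and 1 downregulated (median 0.55), and of 28 proteoglycan and matricellular genes, 20 and 2 (median 0.39). Col12a1, a collagen that coats fibrils, lay at 1234, 1288 and 1326 CPM in 2% HS and 2806, 2993 and 3218 CPM in LEU (log2 change 1.21, SE 0.038, adjusted p = 1.69e-29). Col6a3, of the microfibrils around muscle fibres, lay at 297, 304 and 328 CPM in 2% HS and 572, 620.4 and 646 CPM in LEU (log2 change 1.00, SE 0.035, adjusted p = 8.46e-28). Col15a1, a basement membrane collagen, rose from low levels, from 1.29 ± 0.546 to 5.22 ± 0.890 CPM (log2 change 2.06, SE 0.20, adjusted p = 4.64e-11). All 3 genes had separate groups. Col8a1 rose by 0.88 on the log2 scale, and Col14a1 was the only called decrease among the chains, from 8.71 ± 1.09 to 3.00 ± 0.652 CPM (log2 change -1.54, SE 0.14, adjusted p = 4.77e-13). Thbs2, a thrombospondin, lay at 72.8, 78.5 and 92.9 CPM in 2% HS and 307, 315 and 342 CPM in LEU (log2 change 1.99, SE 0.048, adjusted p = 1.18e-31). The small leucine-rich proteoglycans Lum, Aspn and Fmod, which bind collagen, rose by 1.94, 1.26 and 0.96 on the log2 scale. Lum and Dcn are among the fibroblast markers, all 4 of whose tested members were higher. The 6 markers summed to 549 to 646 CPM in 2% HS, 755 to 928 CPM in SD and 663 to 783 CPM in LEU. Tcf21, another of them, was at 0 in all 12 libraries and Thy1 under 1 CPM. Whether fibroblast-like cells had a part in the matrix values was not tested. Col6a3 was lower in LEU than in SD (-0.15, adjusted p = 0.0183), a call lost in 3 of 23 alternative fits.

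Matrix metalloproteinases, related ADAMTS proteases and their inhibitors were split, 4 higher and 4 lower of 13. Adamts5, which cleaves versican and aggrecan, fell from 158 ± 6.16 to 77.0 ± 6.44 CPM (log2 change -1.03, SE 0.046, adjusted p = 1.49e-23), and Timp1, an inhibitor, rose from 53.2 ± 3.58 to 78.2 ± 3.55 CPM (log2 change 0.55, SE 0.057, adjusted p = 9.92e-11). Adamts4 and Mmp11 fell, with log2 fold changes of -0.43 and -0.41 and Mmp19 rose by 0.39 on the log2 scale.

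**Figure D5:**
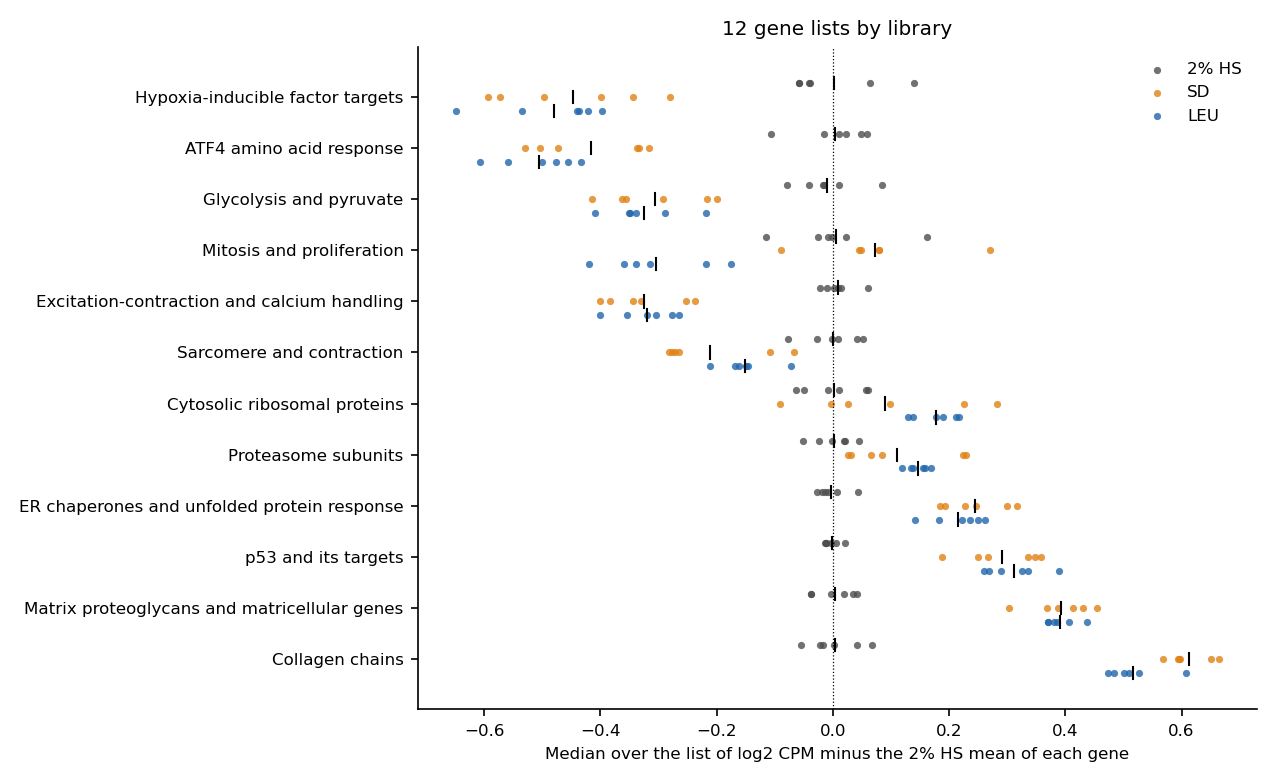
Median over the members of 12 gene lists of each library's log2 CPM minus the gene's mean in 2% HS, for 2% HS, SD and LEU. Points are libraries and ticks group means (n = 6). For mitosis the 6 LEU medians lie between -0.42 and -0.17, below those of 2% HS (-0.12 to 0.16) and SD (-0.089 to 0.27).

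Muscle genes moved mainly down, by size less than the hypoxia and matrix groups. Of 35 sarcomere and contraction genes, 17 were downregulated and 3 upregulated (median -0.15; -0.25 in SD). Ckm, the muscle creatine kinase, lay at 289, 309 and 327 CPM in 2% HS and 138, 150.1 and 176 CPM in LEU (log2 change -1.01, SE 0.085, adjusted p = 2.99e-10). Myl2, a slow-type light chain, lay at 13.8, 15.6 and 16.7 CPM in 2% HS and 7.60, 8.07 and 8.41 CPM in LEU (log2 change -0.92, SE 0.11, adjusted p = 2.00e-09). Myh7, the slow myosin heavy chain, fell from 299.6 ± 28 to 199.5 ± 18.99 CPM (log2 change -0.59, SE 0.077, adjusted p = 8.94e-07). For these the groups did not overlap. Mybpc2, a myosin-binding protein, fell by 1.01 on the log2 scale, and Myoz1, which anchors calcineurin at the Z-disc, fell by 0.53 on the same scale. The fast heavy chain Myh1 stood at 2223, 2270 and 2488 CPM in 2% HS and 1981, 2104 and 2201 CPM in LEU and did not pass although the groups were separate (log2 fold change -0.14, adjusted p = 0.0552), and it passed in 7 of 23 alternative fits. It stood at 1626, 1782 and 1848 CPM in SD, and was higher in LEU than in SD (0.25, adjusted p = 0.0361), a call lost in 10 of 23 alternative fits. Tnnc2, the fast troponin C, rose against both 2% HS (log2 change 0.38, SE 0.13, adjusted p = 0.0324) and SD (0.60, adjusted p = 0.036), calls that were lost in 4 and 10 of 23 alternative fits. Myosin genes are similar in sequence, so values between them may share reads.

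Genes of excitation-contraction coupling, which turn the action potential into calcium release, were lower in 13 and higher in 3 of 18 members (median -0.31). Atp2a1, the fast calcium pump of the sarcoplasmic reticulum, lay at 1361, 1441 and 1526 CPM in 2% HS and 808, 847 and 910.1 CPM in LEU (log2 change -0.76, SE 0.046, adjusted p = 2.89e-18). Ryr3, a calcium release channel, lay at 192, 199 and 201 CPM in 2% HS and 109.7, 116 and 120.0 CPM in LEU (log2 change -0.78, SE 0.04, adjusted p = 5.66e-21). Pvalb, a calcium buffer of fast fibres, fell from 23.4 ± 2.64 to 7.88 ± 1.29 CPM (log2 change -1.57, SE 0.12, adjusted p = 2.62e-14), and Sln, the sarcolipin that restrains the pump, fell from 21.5 ± 2.19 to 8.61 ± 2.12 CPM (log2 change -1.32, SE 0.17, adjusted p = 4.01e-07). The LEU libraries of these 4 genes lay below all in 2% HS. Atp2a2, the slow pump, fell by 0.50 on the log2 scale. At the neuromuscular junction 7 of 13 genes were lower and 0 higher (median -0.19), with Rapsn, which clusters the receptor, at -0.39, Ache, the acetylcholinesterase, at -0.38, and its collagen tail Colq at -0.37, all log2 fold changes. Lrp4, the agrin receptor, and Chrnb1, a receptor subunit, fell, with log2 fold changes of -0.31 and -0.25.

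Of 16 myogenic and fusion factors, 8 were lower and 1 higher. Mymx, the micropeptide of myoblast fusion, fell from 56.1 ± 5.62 to 38.0 ± 1.72 CPM (log2 change -0.56, SE 0.064, adjusted p = 1.37e-09). Cdh15, the muscle cadherin, fell from 464 ± 14.8 to 329 ± 8.57 CPM (log2 change -0.50, SE 0.04, adjusted p = 3.22e-14), and Pax7, the satellite cell factor, fell from 190.0 ± 5.67 to 154 ± 5.48 CPM (log2 change -0.30, SE 0.039, adjusted p = 2.67e-08). Myf6 and Myod1 fell, with log2 fold changes of -0.72 and -0.21, with overlapping groups. Myog, the factor of terminal differentiation, did not pass (0.014 on the log2 scale, adjusted p = 0.808). Actin and SRF target genes were lower in 8 and higher in 1 of 17 (median -0.078). Acta2, the smooth muscle actin, fell from 2553 ± 76.3 to 1991 ± 60.6 CPM (log2 change -0.36, SE 0.041, adjusted p = 8.16e-10), and Cnn1, Myl9, Vcl and Actn1 fell, with log2 fold changes of -1.08, -0.46, -0.27 and -0.22.

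Cytosolic ribosomal protein genes were higher in 35 and lower in 1 of 79, by small margins (median 0.15; 0.087 in SD). In LEU vs. SD, 7 were higher, against 0.233% over all genes. Rpl36a lay at 63.0, 68.5 and 70.8 CPM in 2% HS and 100.0, 106 and 113 CPM in LEU (log2 change 0.65, SE 0.10, adjusted p = 5.89e-06). Rpl19, Rpl23 and Rps12 rose by 0.55, 0.46 and 0.45 on the log2 scale. The groups did not overlap for these 4 genes. These transcripts are short, with a median exon length of 1770 bases against 3835 over all tested genes, and short transcripts as a class were higher in LEU. Over the 131 protein-coding genes with under 1000 exon bases and a mean log2 CPM over 3, the library medians lay 0.13 to 0.24 above the 2% HS mean in LEU, at -0.042 to 0.061 in 2% HS and at -0.012 to 0.25 in SD, and the 5992 such genes with at least 4000 bases had a median log2 fold change of -0.008. With an offset for transcript length, chosen after seeing the data, the median of the short genes was 0.07 in place of 0.17. The part of transcript length in these values beyond that offset was not tested. Near-identical copies of ribosomal protein genes make their counts uncertain.

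Ribosome biogenesis and RNA polymerase I genes were higher in 12 and lower in 3 of 46, with Nop16, Nolc1 and Fbl, which act in the nucleolus, at 0.33, 0.32 and 0.31, Taf1c, of the polymerase I factor SL1, at 0.31 and Gar1, of the box H/ACA complex, at 0.27 as log2 fold changes. The calls of Taf1c and Gar1 were each lost in 5 of 23 alternative fits. Translation initiation and elongation factors were balanced, 6 higher and 6 lower of 44. Eef1a2, the elongation factor of adult muscle, fell from 11.96 ± 1.76 to 6.71 ± 0.902 CPM (log2 change -0.84, SE 0.15, adjusted p = 2.35e-05), and Eif4ebp1, the repressor that mTORC1 switches off, fell from 93.9 ± 4.69 to 70.8 ± 3.59 CPM (log2 change -0.41, SE 0.055, adjusted p = 5.71e-08). Eif4a2 fell by 0.21 on the log2 scale, and Eif3g and Eef1d rose by 0.24 and 0.21 on the log2 scale. Proteasome subunits, which form the protease for ubiquitin-tagged proteins, were higher in 18 and lower in 0 of 32 (median 0.14), with Psmd7 at a log2 fold change of 0.34, Psma7 at 0.30, Psmb7 at 0.25, Psmc1 at 0.25 and Psmb6 at 0.24.

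Chaperones of the endoplasmic reticulum fold secreted proteins, and 13 of 21 genes were higher and 2 lower (median 0.24). Calr, calreticulin, lay at 579, 584 and 591 CPM in 2% HS and 763, 810.4 and 829 CPM in LEU (log2 change 0.46, SE 0.039, adjusted p = 2.48e-13). Manf rose from 51.7 ± 2.31 to 69.8 ± 1.74 CPM (log2 change 0.43, SE 0.044, adjusted p = 3.93e-11), and Pdia6 and Pdia3, disulfide isomerases, rose by 0.40 and 0.40 on the log2 scale with no overlap. Sdf2l1 was higher by 0.42 on the log2 scale, a call lost in 3 of 23 alternative fits. Cytosolic chaperones were higher in 5 and lower in 0 of 21, led by Hspa1b, a near copy of another Hsp70 gene (log2 fold change 0.38) and Bag3 (0.33), followed by Cryab (0.26), Dnaja1 (0.21) and Hspd1 (0.12). The call of Hspd1 was lost in 8 of 23. Autophagy and lysosome genes held 9 lower and 2 higher of 35, with the kinase Ulk1 at a log2 fold change of -0.38, the factor Tfeb at -0.34, acid glucosidase Gaa at -0.33, cathepsin Ctsb at -0.21 and the channel Mcoln1 at -0.21. Of 15 atrophy ubiquitin ligases and FoxO targets, 6 were lower and 4 higher. Txnip, which restrains glucose uptake, rose from 38.1 ± 3.89 to 115 ± 17.3 CPM (log2 change 1.59, SE 0.094, adjusted p = 1.62e-13), against falls of Pdk4 (log2 fold change -0.53), which blocks pyruvate oxidation, Ccng2 (-0.47) and Klhl24 (-0.30). Of 21 NRF2 genes, 8 were higher and 3 lower, with Gstm1, G6pdx and Sod1 at log2 fold changes of 0.68, 0.42 and 0.31 and Hmox1 at -0.33.

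Nuclear genes for oxidative phosphorylation were higher in 20 and lower in 3 of 51 (median 0.10), also with a short median exon length, 1801 bases, and the median was 0.036 with the offset for transcript length. Ndufa13, of complex I, lay at 34.6, 36.2 and 40.2 CPM in 2% HS and 62.1, 64.9 and 70.2 CPM in LEU (log2 change 0.83, SE 0.12, adjusted p = 3.33e-06), and was higher in LEU vs. SD (0.61, adjusted p = 0.0112). Cox6c, of complex IV, rose from 117 ± 7.73 to 169 ± 5.85 CPM (log2 change 0.53, SE 0.11, adjusted p = 0.000322), and Ndufa1, Ndufa5 and Ndufa2 rose by 0.46, 0.44 and 0.37 on the log2 scale, the last a call lost in 7 of 23 alternative fits. Of 13 mRNAs made in mitochondria, 3 were higher and 0 lower: mt-Nd2 lay at 996, 1201 and 1345 CPM in 2% HS and 1718, 1780 and 1908 CPM in LEU (log2 change 0.63, SE 0.19, adjusted p = 0.0133), and mt-Nd1 and mt-Cytb rose by 0.56 and 0.48 on the log2 scale. The call of mt-Cytb was lost with the offset for transcript length (adjusted p = 0.0538), and the list's median exon length was 784 bases. Mitochondrial ribosomal RNA took 0.501% to 0.710% of counts in LEU, 0.219% to 0.306% in 2% HS and 0.28% to 0.37% in SD. Its part in these values and in those of LEU vs. SD was not tested.

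Fatty acid oxidation genes were split, 5 higher and 6 lower of 26, with large changes on both sides. Angptl4, a secreted inhibitor of lipoprotein lipase that fatty acids induce, lay at 9.62, 11.2 and 14.04 CPM in 2% HS and 35.9, 38.1 and 47.8 CPM in LEU (log2 change 1.83, SE 0.072, adjusted p = 1.31e-25). Cpt1a, which takes fatty acids into mitochondria, lay at 41.0, 42.6 and 45.9 CPM in 2% HS and 83.0, 85.9 and 90.5 CPM in LEU (log2 change 1.01, SE 0.045, adjusted p = 2.17e-23). Lpl, the lipase itself, rose from 27.3 ± 1.41 to 53.2 ± 3.52 CPM (log2 change 0.96, SE 0.053, adjusted p = 5.86e-20). The groups were separate for all of these. Ppargc1a, the coactivator PGC-1 alpha, fell from 8.65 ± 0.924 to 3.67 ± 0.428 CPM (log2 change -1.23, SE 0.13, adjusted p = 4.12e-11), and Ucp3, a mitochondrial carrier of muscle, fell from 2.57 ± 0.718 to 0.991 ± 0.340 CPM (log2 change -1.36, SE 0.23, adjusted p = 6.49e-06). Fatty acid synthesis held 3 lower and 0 higher of 15, with Elovl5, Fads1 and Fasn at log2 fold changes of -0.12, -0.12 and -0.10 and the call of Fasn lost in 15 of 23 alternative fits. The calls of Elovl5 and Fads1 were lost when genes with more than 5 counts in total were tested (adjusted p = 0.0618 and 0.0611). Cholesterol synthesis and uptake held 5 higher and 5 lower of 25. Pmvk, Hmgcs1 and Fdps of the mevalonate pathway rose by 0.48, 0.27 and 0.24 on the log2 scale, while Dhcr7, the last enzyme of the synthesis, fell by 0.27 on the log2 scale. Of 10 genes of cholesterol export and LXR, 2 were higher and 2 lower. Apoe, the lipoprotein component, rose from 10.7 ± 1.27 to 24.7 ± 3.43 CPM (log2 change 1.20, SE 0.10, adjusted p = 7.46e-12), and Abcg1, an exporter, rose from 11.04 ± 1.07 to 20.98 ± 1.58 CPM (log2 change 0.93, SE 0.077, adjusted p = 7.08e-14), with Mylip and Npc1 at log2 fold changes of -0.17 and -0.15.

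Serum also carries retinoids, glucocorticoids, iron and zinc. Retinoid genes were lower in 6 and higher in 2 of 12 (median -0.35). Among members with at least 10 counts in every library the median was -0.014. Dhrs3, which reduces retinaldehyde and is induced by retinoic acid, fell from 14.4 ± 1.24 to 6.36 ± 1.44 CPM (log2 change -1.18, SE 0.10, adjusted p = 4.91e-13), and Crabp2, Stra6 and Cyp26a1 fell, with log2 fold changes of -0.76, -0.84 and -0.84. Glucocorticoid targets were lower in 5 and higher in 1 of 12. Klf9 fell from 91.9 ± 6.55 to 44.3 ± 4.34 CPM (log2 change -1.05, SE 0.058, adjusted p = 1.21e-19), Klf15 fell from 2.48 ± 0.524 to 0.595 ± 0.334 CPM (log2 change -2.04, SE 0.30, adjusted p = 4.07e-07), and Glul, glutamine synthetase, fell by 0.52 on the log2 scale. Sgk1 rose by 0.26 on the log2 scale. The metallothioneins Mt1 and Mt2 fell, with log2 fold changes of -0.55 and -0.55 and were the 2 lower members of 7, with 0 higher. Of 11 iron genes, 3 were lower and 0 higher. Slc40a1, the iron exporter ferroportin, lay at 43.9, 46.1 and 48.7 CPM in 2% HS and 15.6, 18.03 and 18.7 CPM in LEU (log2 change -1.40, SE 0.069, adjusted p = 7.76e-22), with no overlap, and Steap3, an iron reductase, fell by 0.35 on the log2 scale.

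In the IGF and insulin list 5 of 17 genes were higher and 5 lower. Igf1, the growth factor, rose from 244 ± 15.2 to 329.6 ± 10.4 CPM (log2 change 0.43, SE 0.042, adjusted p = 6.99e-12). Igfbp5, an IGF-binding protein of muscle cells, fell from 4106 ± 89.7 to 2399 ± 205 CPM (log2 change -0.78, SE 0.043, adjusted p = 5.86e-20). Igfbp6 and Igfbp7 rose by 0.84 and 0.64 on the log2 scale, and Igfbp4 fell by 0.54 on the log2 scale. The TGF-beta, BMP and activin list was split as well, 11 higher and 9 lower of 30. The ligands Bmp6 and Inhba and the antagonist Grem1 fell, with log2 fold changes of -0.88, -0.75 and -0.56, while Smad9 rose by 0.49 on the log2 scale. Id and Notch genes held 6 lower and 3 higher of 16. Notch3 lay at 254, 281 and 301 CPM in 2% HS and 125, 129.5 and 134 CPM in LEU (log2 change -1.11, SE 0.075, adjusted p = 1.45e-12), and its targets Heyl and Hey1 fell, with log2 fold changes of -0.70 and -0.67, with Nrarp at -0.96 and Lfng, which modifies the receptor, at 0.81.

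YAP targets gave 5 higher and 4 lower of 13. Ccn2 fell from 111 ± 9.16 to 52.8 ± 3.81 CPM (log2 change -1.08, SE 0.061, adjusted p = 8.04e-18), but Ccn1, Ankrd1 and F3 rose by 0.59, 0.54 and 1.24 on the log2 scale, and Nuak2 was at -0.35. Immediate early genes, the first to answer growth factors, were higher in 13 and lower in 3 of 20 (median 0.23). Jun rose from 165 ± 6.13 to 225 ± 8.98 CPM (log2 change 0.44, SE 0.044, adjusted p = 2.70e-11) and Egr3 rose from 112 ± 6.74 to 152 ± 11.04 CPM (log2 change 0.44, SE 0.051, adjusted p = 3.03e-09), both without overlap, Fosb and Klf2 rose by 0.49 and 0.49 on the log2 scale with overlap, and Ier3 fell by 0.47 on the log2 scale. Feedback genes of the ERK pathway were higher in 5 and lower in 1 of 12, among them Spry4 (log2 fold change 0.55), Phlda1 (0.39), Dusp6 (0.32), Dusp4 (0.20, a call lost in 9 of 23 alternative fits) and Spry1 (0.20).

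Innate immune genes were low in these cells and rose in part. Interferon response and antigen presentation genes were higher in 8 and lower in 1 of 23 tested (median 0.26). Ifit1 lay at 1.39, 1.57 and 1.94 CPM in 2% HS and 2.83, 3.62 and 5.29 CPM in LEU (log2 change 1.22, SE 0.17, adjusted p = 1.91e-07) and Rsad2 lay at 0.277, 0.522 and 1.161 CPM in 2% HS and 1.17, 1.76 and 2.25 CPM in LEU (log2 change 1.62, SE 0.30, adjusted p = 2.63e-05), without overlap but near the lower limit of detection. Tap1, a peptide transporter, rose by 0.92 on the log2 scale and Oasl2 fell by 1.02 on the log2 scale. NF-kB, cytokine and chemokine genes were higher in 11 and lower in 3 of 20. Csf1, the macrophage growth factor, lay at 119.5, 128 and 136 CPM in 2% HS and 191, 208 and 218 CPM in LEU (log2 change 0.69, SE 0.041, adjusted p = 1.18e-18), and Nfkbia, the inhibitor that NF-kB induces, rose from 15.4 ± 1.48 to 23.6 ± 1.53 CPM (log2 change 0.62, SE 0.073, adjusted p = 1.76e-09). Ccl7 and Ccl8 rose by 0.45 and 1.04 on the log2 scale at levels under 5 CPM, and the call of Ccl7 was lost with the offset for transcript length. Of 10 complement genes, 5 were higher and 2 lower. The proteases C1s1, C1ra and Masp1 rose by 1.10, 0.70 and 0.68 on the log2 scale, and Clu rose by 1.00 on the log2 scale. Macrophage markers summed to 2.25 to 3.55 CPM in 2% HS and 2.40 to 4.61 CPM in LEU. Clock genes were lower in 6 and higher in 3 of 18, with Arntl, the core activator, at a log2 fold change of 0.41, Bhlhe40 at -0.34, Rora at -0.44 and Ciart at -0.53.

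The 88 genes that differed in LEU vs. SD are those in which cells with 500 nM added leucine stood apart from cells under serum removal alone. Of the 51 lower genes, 29 were also lower and 4 higher than in 2% HS past the threshold, and 18 did not pass the test against 2% HS. Of the 37 higher genes, 34 were also higher than in 2% HS and 3 did not pass that test. The largest decreases under the rule for named genes included those of Ccnb1, Cdc6, Kif14 and Hist1h2bk. Kif14, a motor of cell cleavage, stood at 7.96 ± 1.21 CPM in SD and 5.29 ± 0.993 CPM in LEU (log2 difference -0.58, adjusted p = 0.0136), and Cdc6, which loads helicases at origins, at 3.46 ± 0.406 and 2.13 ± 0.475 CPM (-0.70, adjusted p = 0.0335). Cdc6 stood at 2.04 ± 0.424 CPM in 2% HS, and its value in LEU vs. 2% HS did not pass (adjusted p = 0.872). Hist1h2bk, Hist1h3c and Hist1h2bf were lower, with log2 differences of -0.84, -0.67 and -0.58, and Neurl1b, of the Notch pathway, was lower with -0.60. Among the increases, the linker histone Hist1h1e (log2 difference 0.42, adjusted p = 0.00427) stood beside Atp5j2 (0.52), a subunit of ATP synthase, Pdcd5 (0.56), Dnajc19 (0.42), of the mitochondrial import motor, and Anapc13 (0.42), a subunit of the anaphase-promoting complex. The calls of Cdc6, Pdcd5 and Anapc13 were lost in 8, 13 and 6 of 23 alternative fits, and that of Kif14 in 2. With 1 library left out the number of called genes lay between 43, without LEU replicate 4, and 100, without SD replicate 3, and it was under 59 without LEU replicate 2, 3 or 5 or SD replicate 2, 4 or 6 as well. The median exon length was 2457 bases among the higher genes and 5386 among the lower, against 3835 over all genes tested. LEU also held a larger share of counts on the mitochondrial chromosome than SD. Whether such differences between libraries had a part in these genes was not tested.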

How the data were processed

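Total RNA of 30 C2C12 myotube libraries, 6 in each of 5 groups, was depleted of ribosomal RNA and sequenced as stranded paired-end reads. The authors deposited raw read counts per gene for each library. Per the submitters' processing notes, cutadapt 1.16, STAR 2.7.6a, featureCounts 1.6.3 and DESeq2 1.30.1 were used with GRCm38, with no role or order stated. The strand setting of the counting and its treatment of shared reads are not given in the sources used here, so reads of near-identical, overlapping or antisense genes may not be told apart. Samples were grouped by their labels, and libraries held 12784960 to 19604103 counts.

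Counts were tested with edgeR 4.0.16 (R 4.3.3). Genes passed filterByExpr (minimum count 10, minimum total 15), leaving 15907 of 55487, and TMM factors were used. A quasi-likelihood model with 1 mean per group was fitted to all 30 libraries, with robust dispersions and Benjamini-Hochberg adjustment over all genes tested, called at 0.05. The biological coefficient of variation was 0.0709, which sets the precision of a fold change together with depth. Standard errors belong to the log2 fold changes, and values with ± are mean and SD over 6 libraries. Symbols and exon lengths came from GENCODE M21, which matched 55227 IDs. Upstream sequences are from RefSeq on GRCm38.p6 and were available for 10427 of the tested genes. The fit was tested on simulated data.

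The comparison, its members and the 49 gene lists were chosen with earlier results of these data known, and the lists are described by counts and medians without a test. Genes were named by rule: the 12 largest rises and falls with no overlap between the 6 and 6 libraries and a mean log2 CPM of at least 1, up to 5 called members of each list by size, all called members of the 3 leucine lists with Slc7a5, Bcat2 and Sesn2, and the 8 largest rises and falls in LEU vs. SD. Some genes that the rule selects are not reported here. Atf4, Ccna2, Ccnb2, Chac1, Fgf21, Hif1a, Hist1h1c, Kif11, Mki67, Myh1, Myog, P4ha2 and Top2a fell outside the rule and were chosen after their values were seen. Alternatives were other normalizations and filters, DESeq2 1.42.0, limma 3.58.1 (voom), a fit restricted to the groups compared, a block on replicate number, leaving out MET+LEU replicate 6 or each compared library, and an offset for transcript length chosen after seeing the data. The library MET+LEU replicate 6 held 5.85% nuclear-encoded ribosomal RNA and entered only the gene filter, the TMM factors and the estimate of the spread.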

Additional observations from a re-analysis of the deposited data

Results flagged for a closer look

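The direct test of LEU vs. SD gave 88 genes whose change against 2% HS differed with leucine, and 12 members of the mitosis list were lower in it. The values by library of Ccnb1, Ccna2 and Top2a are given with the mitosis genes above.

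Of 532 groups of 6 libraries (266 named genes in LEU and in 2% HS), 29 (5.45%) held a library whose gap to its nearest neighbour exceeded Dixon's 95% critical value for the share of the group's range. For independent, normally distributed values chance flags about 1 in 20 groups, but these genes share the same libraries. The rule sees only a single library that stands apart and misses a split of a group into sets of libraries. LEU replicate 4 was high for Abcg1 (24 CPM, others at most 21.02), Aff3 (75.5, others 56.9 to 63.8), Apoe (31.0, others 21.6 to 25.1) and Ccl8 (2.82, others 1.36 to 1.89), and low for Rpl23 (341 CPM). LEU replicate 6 was low for Aplnr (4.78 CPM), Oxtr (10.98 CPM), Lpl (46.6 CPM) and Hist1h1c (201 CPM). LEU replicate 2 was high for Hey1 (8.92 CPM), Igfbp4 (75.6 CPM), Myf6 (6.78 CPM) and Ucp3 (1.63 CPM), and LEU replicate 5 for Cdc6 (3.06 CPM, others 1.71 to 2.05) and Sesn3 (130.3 CPM). LEU replicate 1 was low for Psmb7 (127.6 CPM). In 2% HS, replicate 1 was high for Bcat1 (19.4 CPM), P4ha2 (83.7 CPM), Rps12 (270.1 CPM) and Slc2a1 (153 CPM) and low for Mylip (59.1 CPM). Replicate 5 of 2% HS was high for Col6a3 (328 CPM), Colq (31.5 CPM) and Wdr59 (31.6 CPM) and low for Bag3 (89.96 CPM). Replicate 3 of 2% HS was high for Dbt (27.02 CPM) and Rapsn (117 CPM), and replicate 6 for Angptl4 (14.04 CPM) and Cdc6 (2.83 CPM).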

How the results depend on the processing

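In LEU vs. 2% HS the number of called genes lay between 3272, at an adjusted p under 0.01, and 5822, in the model of only the 2 groups compared, and between 4323 and 4474 with 1 library left out. With the replicate number as a replicate block it was 4818, and in LEU vs. SD it was 102. Libraries of LEU and 2% HS with the same number did not deviate together (median correlation -0.0031, range -0.0065 to 0.033). As 0 of 6 LEU libraries correlated best with their own number, libraries were not paired by number. This check does not look for order within a group. In LEU, replicates 1 to 3 lay above replicates 4 to 6 for Ndrg1 (130.5 to 149.9 against 64.6 to 94.7 CPM). The same held for Car9 (16.45 to 21.7 against 8.38 to 12.6) and Ero1l (37.4 to 51.6 against 24.9 to 31.6), but not for Ccnb1. Ndrg1 in 2% HS fell from 481.5 CPM in replicate 1 to 333 CPM in replicate 6. The cause of this order was not tested. The 24 genes with the largest changes kept their call in all 23 alternative fits. LEU vs. SD depended more on the settings, and the cause was not tested. Its 88 genes (37 higher and 51 lower) became 162 (86 higher) with DESeq2's Wald test, 216 (133 and 83) with limma-voom, 195 (129 higher) in the model of only the 2 groups, 263 (162 and 101) without MET+LEU replicate 6 in the fit, and 25 (9 and 16) at an adjusted p under 0.01. With 1 library left out they ranged from 43 to 100 in all, from 18 to 54 for higher and from 24 to 49 for lower genes. A filter of at least 10 counts in every library, which tests fewer members, moved list medians to -0.014 for retinoid genes, -0.40 for ATF4 targets, 0.22 for interferon genes, 0.14 for NF-kB genes and 0.46 for complement genes. The offset for transcript length, chosen after seeing the data, moved them to -0.0049 for translation factors, -0.016 for autophagy, 0.036 for nuclear oxidative phosphorylation, 0.044 for histones and 0.024 for cytosolic chaperones. With 1 library left out, medians ranged from -0.075 to -0.049 for branched-chain amino acid breakdown, -0.081 to -0.027 for clock genes, 0.50 to 0.60 for collagens, -0.029 to 0.0077 for fatty acid oxidation, -0.055 to -0.0016 for fatty acid synthesis, -0.065 to -0.022 for the IGF list and 0.20 to 0.27 for interferon genes. Of 1150 medians recomputed, 1131 stayed within 1 SD of the replicates. Among genes that did not pass in LEU vs. 2% HS, the log2 fold change of Sesn2 ranged from -0.0535 to 0.0065 and that of Cdc6 from -0.082 to 0.161 with 1 library left out, and that of Atf4 became -0.011 with the length offset. Depth limits the genes under about 1 CPM, whose fold changes rest on few counts.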

Other observations

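The summed levels of markers of further lineages are given here. Of the 6 adipocyte markers, 5 (Adipoq, Plin1, Cidec, Lep and Fabp4) stayed under 1 CPM in all 12 libraries, and the list summed to 6.32 to 8.04 CPM in 2% HS and 5.83 to 9.46 CPM in LEU. Of the 5 osteoblast markers, 4 (Bglap, Ibsp, Sp7 and Alpl) stayed under 1 CPM, and the sum, nearly all of it Runx2, was 113 to 123 CPM in 2% HS and 111 to 136 CPM in LEU. The 5 Schwann cell and neuron markers summed to 3.01 to 4.13 CPM in 2% HS and 2.12 to 3.00 CPM in LEU. The 5 smooth muscle markers, which myoblasts share in part through Acta2 and Cnn1, summed to 2645 to 2876 CPM in 2% HS and 2059 to 2218 CPM in LEU, with 4 members lower and Myh11 under 1 CPM. The endothelial markers, 4 of which are described above as scarce, summed to 2.75 to 4.19 CPM in 2% HS and 1.70 to 2.40 CPM in LEU.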
